A study of Mus musculus with 12 samples.

Results

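The endothelial identity and VEGF receptor genes described here are 10 rows of the deposited gene table, chosen by symbol: Pecam1, Cdh5, Kdr, Flt1, Emcn, Egfl7, Vwf, Tek, Tie1 and Prox1. The table lists 41709 genes in all. RNA was sequenced from aortic valve leaflets of mice aged 2 months, in the 4 genotype groups DKO, SMKO, ECKO and CTRL, with 3 libraries in each. All groups share the mixed strain C57BL/6J;129SvEv, and the leaflets were cut by laser from fixed, frozen and hematoxylin-stained heart sections. As the study is known, the groups differ in Efemp2, the gene of fibulin-4, an extracellular protein of elastic fibre assembly: ECKO stands for its deletion in endothelial cells, SMKO for its deletion in smooth muscle cells and DKO for both, and CTRL is the control. The labels give these 4 names alone, with no allele, Cre driver or clone, and they do not say how many animals made up a library. The deposited design calls the libraries biological triplicates. The question put to the 10 genes was whether endothelial transcripts moved together, as a change in the endothelial share of a leaflet would move them, or gene by gene.

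Aortic valve leaflets are covered on each face by a layer of endothelial cells over a core of interstitial cells and matrix, and healthy leaflets hold few vessels. Kdr (VEGFR2) is the main signalling receptor for VEGF-A, while Flt1 (VEGFR1) binds VEGF-A more tightly, signals weakly and is known as a decoy. Tek (Tie2) is the receptor for angiopoietins and Tie1 its partner receptor, and the angiopoietin pathway is known for holding endothelial layers quiescent. Prox1 is the transcription factor that sets lymphatic endothelial identity and is also made by valve endothelium in mice.

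The promoters of Kdr, Flt1, Prox1 and Emcn are shown because the transcripts of Kdr, Prox1 and Emcn were low in DKO leaflets while those of Flt1 overlapped between groups. Each line holds the 250 bases upstream of the transcription start as RefSeq gives it in GRCm38.p6, an older build than the GRCm39 to which the reads were mapped, written 5′ to 3′ on the strand of the gene. Capitals mark AGGAAG, the core letters bound by ETS factors, or its reverse complement.
Kdr, chr5:75978456-75978705, minus strand: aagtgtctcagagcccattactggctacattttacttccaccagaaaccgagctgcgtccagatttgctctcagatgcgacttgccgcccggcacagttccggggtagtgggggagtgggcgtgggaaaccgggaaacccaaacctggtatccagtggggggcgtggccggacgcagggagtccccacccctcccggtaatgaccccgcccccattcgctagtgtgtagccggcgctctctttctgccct
Flt1, chr5:147726012-147726261, minus strand: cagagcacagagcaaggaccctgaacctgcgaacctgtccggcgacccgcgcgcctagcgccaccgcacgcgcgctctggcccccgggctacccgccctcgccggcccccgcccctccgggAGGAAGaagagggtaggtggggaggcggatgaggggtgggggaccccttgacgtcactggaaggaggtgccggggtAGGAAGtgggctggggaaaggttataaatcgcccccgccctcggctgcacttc
Prox1, chr1:190170828-190171077, minus strand: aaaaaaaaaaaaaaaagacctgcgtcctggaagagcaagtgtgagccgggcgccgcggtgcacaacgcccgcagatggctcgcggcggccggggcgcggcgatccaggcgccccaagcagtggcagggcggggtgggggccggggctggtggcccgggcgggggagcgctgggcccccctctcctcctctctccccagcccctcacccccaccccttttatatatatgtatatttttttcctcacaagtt
Emcn, chr3:137340828-137341077, plus strand: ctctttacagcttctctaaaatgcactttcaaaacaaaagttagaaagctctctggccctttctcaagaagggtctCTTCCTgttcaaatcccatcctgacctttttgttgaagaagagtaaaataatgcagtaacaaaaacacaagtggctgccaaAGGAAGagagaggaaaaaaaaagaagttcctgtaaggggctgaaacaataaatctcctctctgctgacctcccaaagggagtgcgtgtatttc

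The Flt1 window held 2 AGGAAG matches and the Emcn window 2, and the Kdr and Prox1 windows shown held 0. Of all 32851 RefSeq promoter windows of this length, 29.5% held at least 1. The shorter GGAA was not counted, and it or its reverse complement stands in the Kdr and Prox1 windows too. The GC box GGGCGG, a site of SP and KLF factors, stood 2 times in the Kdr window, 3 times in the Flt1 window and 2 times in the Prox1 window, and was in 32.7% of all windows. Both strands were searched, and each motif was searched on its own, so that matches may overlap. TATAAA was found in the windows of Flt1 and Prox1 and in 12.4% of all windows, while GATAAG, in 6.55% of all windows, and GTAAACA, in 3.17%, were in none of the windows of these genes. RefSeq windows were matched for 7 of the 10 genes, 10 windows in all, and not for Pecam1, Cdh5 and Vwf. A match describes letters in this window and not binding. For Kdr, Flt1 and Emcn the bases after the window were found in an annotated transcript of the gene. For Prox1 they were not, so its transcription start is less certain.

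Sequencing was shallow: the libraries held between 74827 and 615665 counts (median 321312), of which 129 to 1020 belonged to the 10 genes. Levels are given as CPM, counts divided by library size after TMM scaling, and 1 count was worth 1.45 to 13.7 CPM. Efemp2 had 0 counts in all 3 DKO libraries, 0 to 4 in SMKO libraries, 3 to 15 in ECKO libraries and 9 to 58 in CTRL libraries. SMKO replicate 2 stood apart in its group: it was the lowest of the SMKO libraries for 7 of the 10 genes, and its summed interstitial markers (51671 CPM), macrophage markers (4097 CPM) and melanocyte markers (1028 CPM) were the highest of the group. ECKO replicate 1 was the lowest ECKO library for 7 of the 10 genes, and ECKO replicate 3 the highest for 8. All 10 genes, most of them defining endothelial markers, had counts in every library, and all were among the 6296 genes that passed the expression filter. Kdr and Prox1 passed it through the other groups, since 0 DKO libraries reached the minimum of 31.1 CPM for either.

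Per length, Egfl7 was the most abundant of the 10 transcripts in CTRL leaflets and Prox1 the least. In the authors' TPM, Egfl7 averaged 116 ± 14.5, Pecam1 102 ± 12.1, Emcn 92.2 ± 26.4, Cdh5 54.7 ± 30.8 and Tek 54.2 ± 20.8 (SD, n = 3). Below them stood Flt1 at 27.0 ± 7.84, Tie1 at 26.7 ± 3.63, Kdr at 14.8 ± 6.69, Vwf at 12.8 ± 6.44 and Prox1 at 9.58 ± 4.59 TPM. Among neighbours in this order, the SD ranges of Tie1 and Kdr alone did not meet. In DKO leaflets the order was Pecam1 at 138 TPM, Tek at 54.3, Emcn at 41.1, Egfl7 at 39.1, Flt1 at 28.2, Tie1 at 26.7, Cdh5 at 22.7, Vwf at 16.7, Kdr at 4.51 and Prox1 at 2.00. Pecam1, and no longer Egfl7, thus came first in DKO leaflets.

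**Figure D1:**
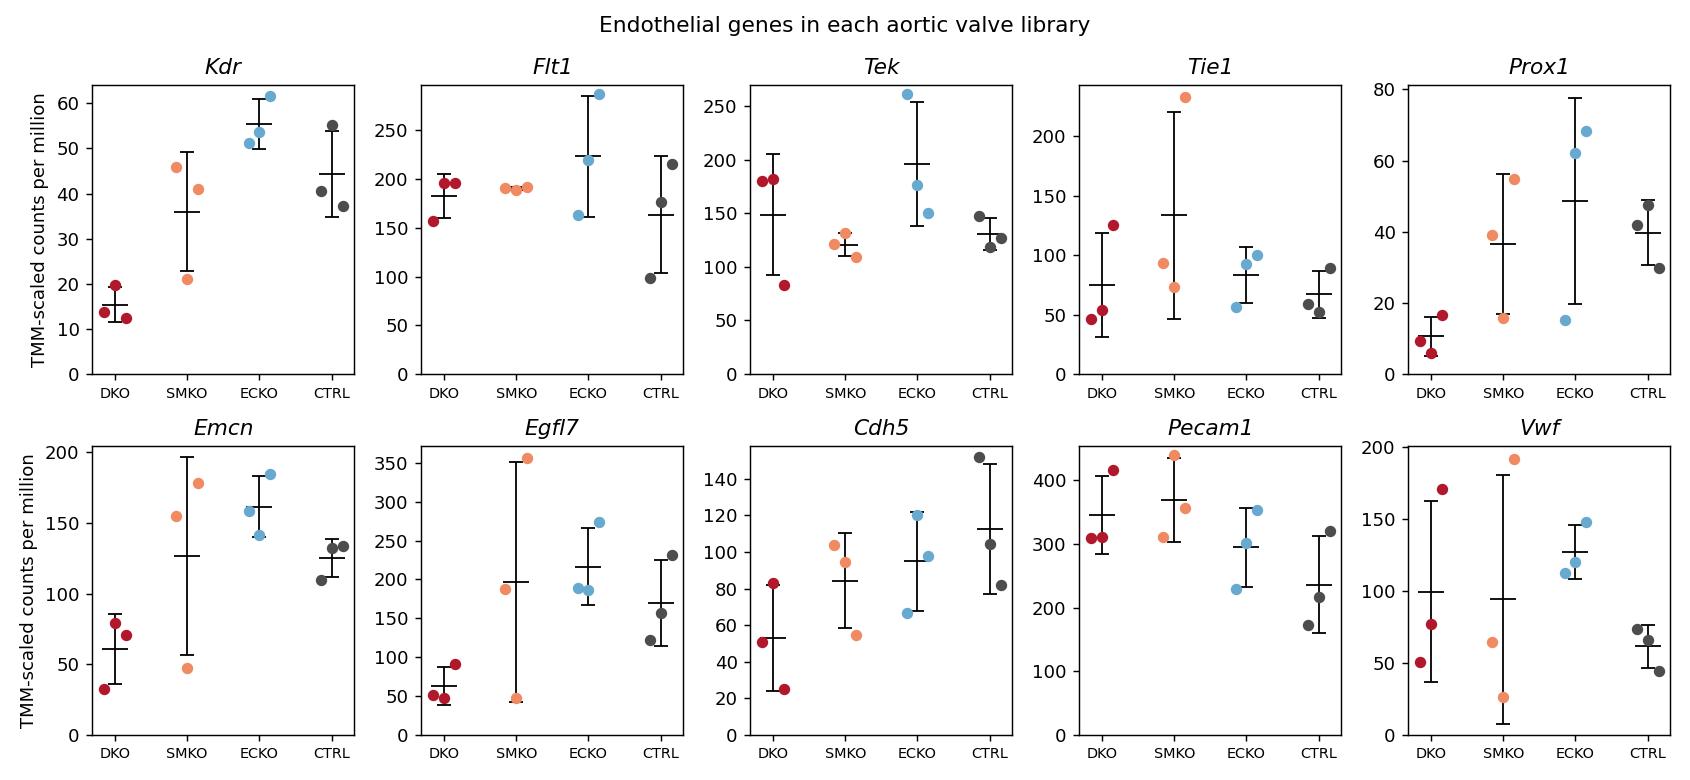
TMM-scaled CPM of the 10 genes, 1 panel per gene, with 1 point per library, the mean as a bar and the SD as whiskers, for DKO, SMKO, ECKO and CTRL (n = 3 each). The DKO points of Kdr lie between 12.5 and 19.8 CPM, under every point of the other groups, whereas those of Flt1, between 157 and 196 CPM, lie within the spread of the others.

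Of the VEGF receptors, Kdr was lower in every DKO library and Flt1 was not. Kdr had 13.9, 19.8 and 12.5 CPM in DKO libraries, against 46.0, 21.0 and 41.1 CPM in SMKO libraries, 51.1, 53.5 and 61.5 CPM in ECKO libraries and 40.5, 55.3 and 37.2 CPM in CTRL libraries. Every DKO library was below every library of the other 3 groups, and SMKO replicate 2 came nearest. Against ECKO, Kdr fell by 1.76 ± 0.40 on the log2 scale (SE; edgeR's quasi-likelihood test, adjusted p = 0.0404). Against CTRL its log2 fold change was -1.49 ± 0.41 (adjusted p = 0.0950) and against SMKO -1.21 ± 0.45 (adjusted p = 0.601), and neither passed the adjusted threshold of 0.05. The call against ECKO held in 5 of the 12 fits that left out 1 library, and was lost without CTRL replicate 1 or any of the ECKO or DKO libraries (adjusted p up to 0.230). The DKO values of Kdr rest on 3, 10 and 3 counts. Pooled over libraries, the DKO level was 0.298 of the ECKO level, with an exact 95% interval of 0.162 to 0.517 that covers counting error only. In bulk leaflets, fewer endothelial cells and less RNA per endothelial cell cannot be told apart.

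Flt1, the decoy receptor, had 157, 196 and 196 CPM in DKO libraries, against 191, 189 and 192 CPM in SMKO libraries, 164, 220 and 287 CPM in ECKO libraries and 98.3, 177 and 216 CPM in CTRL libraries. The groups overlapped throughout. Its log2 fold change in DKO was -0.05 (95% interval -0.63 to 0.53) against SMKO, -0.32 (-0.86 to 0.23) against ECKO and 0.23 (-0.33 to 0.79) against CTRL. These intervals leave out a fall as large as the fitted fall of Kdr against ECKO.

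The receptor pair was then set against itself within each library, which removes depth and any factor shared by the pair. Per 100 Flt1 counts there were 8.82, 10.1 and 6.38 Kdr counts in DKO libraries, against 24.1, 11.1 and 21.4 in SMKO libraries, 31.2, 24.3 and 21.4 in ECKO libraries and 41.2, 31.3 and 17.2 in CTRL libraries. The DKO libraries were the 3 lowest of the 12. The log2 ratio was lower in DKO by -1.11 against SMKO, -1.61 against ECKO and -1.76 against CTRL. Each of these had an exact two-sided permutation p of 0.1, the smallest that 3 against 3 libraries can give, and 0.4 after adjustment over the 12 ratio comparisons made.

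For both Tie receptors the DKO libraries overlapped every other group. Tek had 180, 182 and 83.3 CPM in DKO libraries, against 121, 131 and 110 CPM in SMKO libraries, 261, 176 and 150 CPM in ECKO libraries and 147, 118 and 127 CPM in CTRL libraries, and DKO replicate 3 was low in its group. Its log2 fold change in DKO was 0.30 (95% interval -0.30 to 0.91) against SMKO, -0.35 (-0.90 to 0.20) against ECKO and 0.19 (-0.38 to 0.75) against CTRL. Tie1 had 46.2, 53.5 and 125 CPM in DKO libraries, against 93.6, 73.4 and 233 CPM in SMKO libraries, 56.2, 92.6 and 100 CPM in ECKO libraries and 59.3, 52.2 and 89.4 CPM in CTRL libraries. The DKO libraries straddled those of ECKO and CTRL, and the log2 fold change in DKO was -0.61 (-1.44 to 0.21) against SMKO, -0.27 (-1.05 to 0.50) against ECKO and 0.23 (-0.58 to 1.04) against CTRL. Tek counts per 100 Tie1 counts ran from 66.7 to 390 in DKO libraries, 47.1 to 179 in SMKO libraries, 150 to 464 in ECKO libraries and 142 to 249 in CTRL libraries. All groups overlapped in that ratio, and its 6 comparisons had exact permutation p of 0.2 to 1.

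Prox1, the transcription factor, showed the largest fitted difference of the 10 genes. It had 9.24, 5.94 and 16.7 CPM in DKO libraries, against 39.2, 15.7 and 54.8 CPM in SMKO libraries, 15.3, 62.2 and 68.4 CPM in ECKO libraries and 41.9, 47.6 and 29.8 CPM in CTRL libraries. DKO replicate 3 lay just above ECKO replicate 1 and SMKO replicate 2, so the DKO libraries were separate from the CTRL libraries alone. Against ECKO, Prox1 fell by 2.48 ± 0.53 on the log2 scale (adjusted p = 0.0340). Against CTRL the log2 fold change was -2.13 ± 0.54 (adjusted p = 0.0680) and against SMKO -1.82 ± 0.60 (adjusted p = 0.519). That call held in 7 of the 12 fits that left out 1 library, and was lost without CTRL replicate 1, ECKO replicate 2, ECKO replicate 3, DKO replicate 1 or DKO replicate 2 (adjusted p up to 0.240). The DKO libraries held 2, 3 and 4 Prox1 counts, and the pooled DKO level was 0.163 of the ECKO level (exact 95% interval 0.0719 to 0.327). Prox1 shares annotated exon sequence with Prox1os on the opposite strand, and the library kit does not keep strand, so reads of that antisense gene could not be told apart.

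Among the surface and junction proteins, Emcn and Cdh5 had lower fitted levels in DKO than in each of the other groups, and none of these differences passed the adjusted threshold. Emcn, the sialomucin endomucin, had 32.3, 79.2 and 70.8 CPM in DKO libraries, against 155, 47.2 and 178 CPM in SMKO libraries, 158, 142 and 185 CPM in ECKO libraries and 110, 132 and 134 CPM in CTRL libraries. The DKO libraries were below all ECKO and CTRL libraries but overlapped SMKO replicate 2. The log2 fold change was -1.34 ± 0.33 against ECKO (adjusted p = 0.0556), -0.96 ± 0.34 against CTRL (adjusted p = 0.223) and -0.95 ± 0.36 against SMKO (adjusted p = 0.603).

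Cdh5 (VE-cadherin), the adhesion molecule of endothelial junctions, had 50.8, 83.2 and 25.0 CPM in DKO libraries, against 104, 94.4 and 54.8 CPM in SMKO libraries, 66.4, 120 and 98.0 CPM in ECKO libraries and 152, 104 and 81.9 CPM in CTRL libraries. The groups overlapped, and its log2 fold change was -0.80 ± 0.34 against ECKO (adjusted p = 0.380), -1.05 ± 0.33 against CTRL (adjusted p = 0.172) and -0.69 ± 0.36 against SMKO (adjusted p = 0.836). Pecam1 (CD31), the platelet and endothelial adhesion molecule, had 309, 311 and 417 CPM in DKO libraries, against 312, 441 and 356 CPM in SMKO libraries, 230, 302 and 353 CPM in ECKO libraries and 172, 217 and 320 CPM in CTRL libraries. Its log2 fold change was 0.19 (95% interval -0.35 to 0.74) against ECKO, 0.59 (0.03 to 1.14) against CTRL, where the adjusted p was 0.400, and -0.09 (-0.65 to 0.46) against SMKO. Pecam1 and Cdh5, both used to mark endothelium, thus had fitted differences of opposite sign against ECKO and CTRL and of the same sign against SMKO.

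The secreted proteins also went separate ways. Egfl7, an endothelial matrix protein, had 50.8, 47.5 and 91.6 CPM in DKO libraries, against 187, 47.2 and 356 CPM in SMKO libraries, 189, 187 and 274 CPM in ECKO libraries and 121, 157 and 231 CPM in CTRL libraries. The DKO libraries were below every ECKO and CTRL library, and SMKO replicate 2 lay at the DKO level while the other SMKO libraries did not. Its log2 fold change was -1.83 ± 0.52 against ECKO (adjusted p = 0.185) and -1.39 ± 0.53 against CTRL (adjusted p = 0.314). Egfl7 shares annotated exon sequence with the coding gene Gm20532 on its own strand and with Agpat2 on the other, so its counts are uncertain to that extent. Vwf (von Willebrand factor) had 50.8, 77.2 and 171 CPM in DKO libraries, against 64.7, 26.2 and 192 CPM in SMKO libraries, 112, 120 and 148 CPM in ECKO libraries and 73.7, 66.0 and 44.7 CPM in CTRL libraries. Its coefficient of variation was the highest of the 10 within DKO (63.3%) and within SMKO (91.9%), and its log2 fold change was -0.40 (95% interval -1.32 to 0.52) against ECKO and 0.56 (-0.42 to 1.54) against CTRL.

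Counted together against ECKO, 9 of the 10 genes had a lower fitted level in DKO and 1, Pecam1, a higher one. The adjusted threshold was passed by 2, Kdr and Prox1. Both had passed the expression filter through the other groups. Every count or median that holds them, here and in the other comparisons with DKO, is therefore a description only beside the value for all genes. Over all 6296 genes tested, 48.2% had a lower fitted level in DKO, and 0.572% passed the threshold, 0.222% with a lower level. With each gene of an endothelial panel weighted equally as the scale (below, with the panel), Flt1 and Tie1 turned to a positive sign and 7 remained lower. The DKO and ECKO libraries did not overlap for 3 genes, Kdr, Emcn and Egfl7, all lower in DKO, a share of 30% beside 8.35% of all genes tested. At an unadjusted p under 0.05 there were 5, Cdh5 in addition to Kdr, Prox1, Emcn and Egfl7, all lower, beside 4.76% of all genes. The median log2 fold change of the 10 was -0.60, and that of all genes 0.02.

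Against CTRL, 5 of the 10 were lower (48.3% of all genes were) and 5 higher in DKO, and 0 passed the adjusted threshold, beside 0.492% of all genes. At an unadjusted p under 0.05 in edgeR there were 6, the same 5 lower and Pecam1 higher, beside 11.7% of all genes (5.15% lower and 6.56% higher), and DESeq2, which gave Kdr and Prox1 no adjusted p, also called 0. Kdr, Prox1, Emcn and Egfl7 did not overlap between DKO and CTRL libraries, all 4 lower in DKO, beside 7.8% of all genes. Since Kdr and Prox1 passed the filter through the other groups, the counts that hold them are a description only. The median was -0.39 for the 10 and 0.02 for all genes. These comparisons share the DKO libraries and are not independent of each other.

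Against SMKO, 8 of the 10 were lower in DKO (48.1% of all genes were), and 6 with either panel as the scale. None passed the adjusted threshold, and neither did any of the 6296 genes (0% called). Kdr, Prox1, Emcn and Egfl7 had an unadjusted p under 0.05 in edgeR, all lower, beside 2.97% of all genes, and DESeq2 also called 0 of the 10. Kdr alone did not overlap, beside 3.89% of all genes lower without overlap. The counts with Kdr and Prox1 are again a description only, as both passed the filter through the other groups. Without SMKO replicate 2 the picture changed: Egfl7 (log2 fold change -1.99, adjusted p = 0.000802) and Emcn (-1.34, adjusted p = 0.0177) then passed against SMKO. That library was the lowest of SMKO for both (47.2 CPM each), so leaving it out was bound to widen these differences. The fit shows the weight of 1 library and is no separate evidence. Leaving out that library also brought Kdr (adjusted p = 0.0355), Prox1 (0.0161) and Egfl7 (0.00841) past the threshold against CTRL, and Emcn (0.00271) and Egfl7 (0.000262) in addition to Kdr and Prox1 against ECKO.

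**Figure D2:**
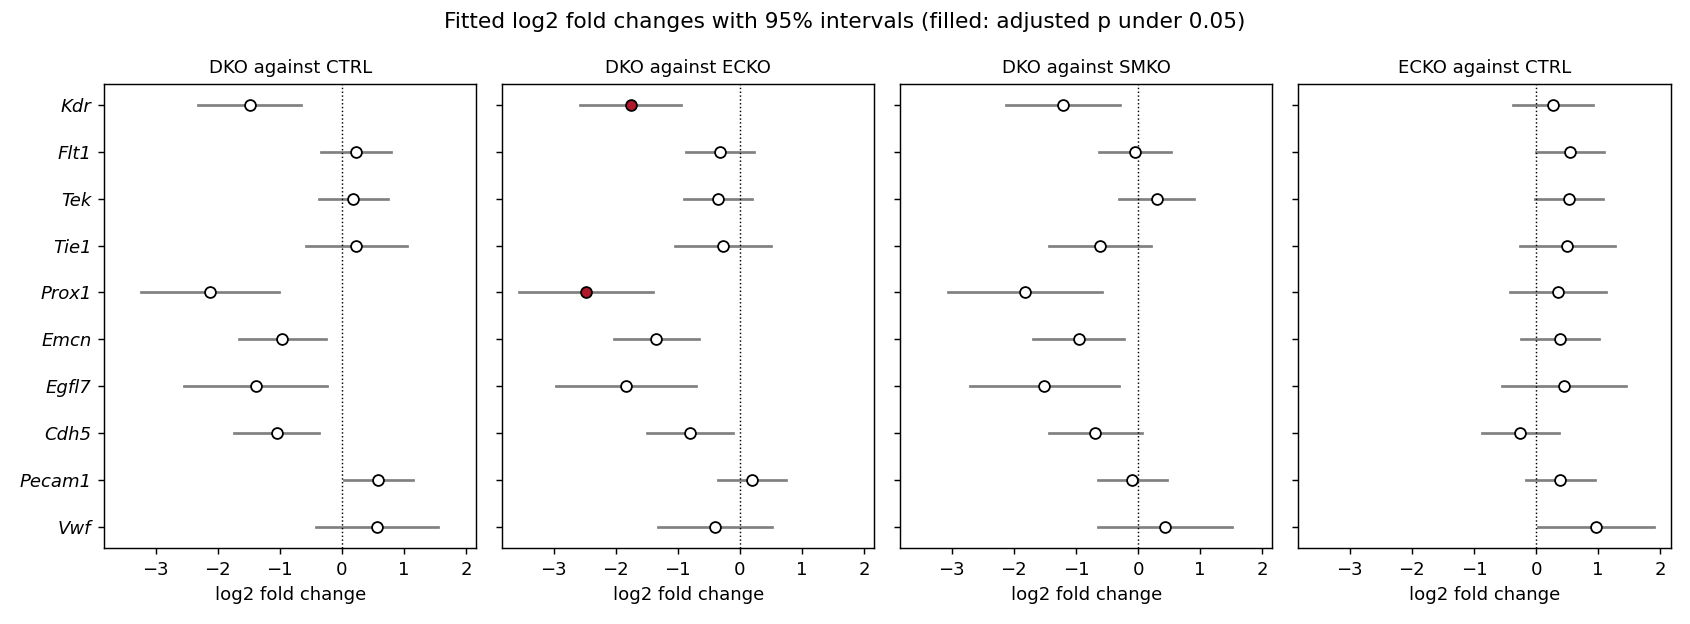
Fitted log2 fold changes of the 10 genes, with 95% intervals and a line at 0, in DKO against CTRL, DKO against ECKO, DKO against SMKO and ECKO against CTRL, filled where the adjusted p is under 0.05. The points of Kdr, Prox1, Emcn, Egfl7 and Cdh5 lie below 0 in the 3 DKO comparisons, with Kdr (-1.76) and Prox1 (-2.48) filled against ECKO, and those of Flt1, Tek, Tie1, Vwf and Pecam1 lie nearer to it.

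The leaflets' endothelial content was then read from 28 other pan-endothelial genes, none of them among the 10. Their summed level was 2390 ± 101 CPM in DKO, 2803 ± 304 in SMKO, 2501 ± 119 in ECKO and 2311 ± 241 in CTRL (SD, n = 3 each). In the sum, the DKO libraries fell within the range of the CTRL libraries and overlapped those of ECKO. With the 20 testable panel genes weighted equally, their mean log2 CPM was 5.68, 6.25 and 5.94 in DKO libraries, against 6.32, 5.74 and 6.49 in SMKO libraries, 5.99, 6.59 and 6.69 in ECKO libraries and 6.31, 6.43 and 6.14 in CTRL libraries. These means used library totals without TMM factors, unlike the sums. By that measure DKO replicates 1 and 3 lay below every ECKO and CTRL library, and DKO replicate 2 lay within both ranges. The TMM factors were 0.874 and 0.922 in DKO replicates 1 and 3 and 1.20 in CTRL replicate 1. With them the order of these libraries may differ. The 10 genes summed to 901, 1055 and 1208 CPM in DKO libraries, against 1303, 1476 and 1726 CPM in ECKO libraries and 1016, 1126 and 1311 CPM in CTRL libraries. They were thus lower in every DKO library than in any ECKO library, and overlapped CTRL. As a share of the panel's counts, Kdr was 0.647% ± 0.183 in DKO, 1.31% ± 0.570 in SMKO, 2.21% ± 0.117 in ECKO and 1.94% ± 0.469 in CTRL. On the same measure Flt1 was 7.69% ± 1.23 in DKO, 6.85% ± 0.778 in SMKO, 8.87% ± 2.05 in ECKO and 6.95% ± 1.95 in CTRL.

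With the summed panel in place of TMM as the scale, the log2 fold change against ECKO was -1.66 for Kdr (adjusted p = 0.0518), -2.37 for Prox1 (0.0304), -1.25 for Emcn (0.0858) and -1.73 for Egfl7 (0.0956), while Flt1 was at -0.22 and Pecam1 at 0.29. The call of Kdr was lost and that of Prox1 held. The median of all genes was 0.11 on this scale and 0.02 with TMM. Ptprb, Ramp2 and Eng held 20.5%, 17.7% and 14.5% of the panel's counts, so a version that weighted the 20 testable panel genes equally was added after these shares were seen. It gave -1.42 for Kdr (adjusted p = 0.0832), -2.10 for Prox1 (0.0358), -1.04 for Emcn, -1.49 for Egfl7, -0.46 for Cdh5, 0.04 for Flt1, 0.10 for Tie1 and 0.55 for Pecam1, with the median of all genes at 0.37. A change of scale shifts all genes by nearly the same amount. The spread among the 10 genes, from Prox1 at the low end to Pecam1 at the high end, was therefore bound to stay similar.

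**Figure D3:**
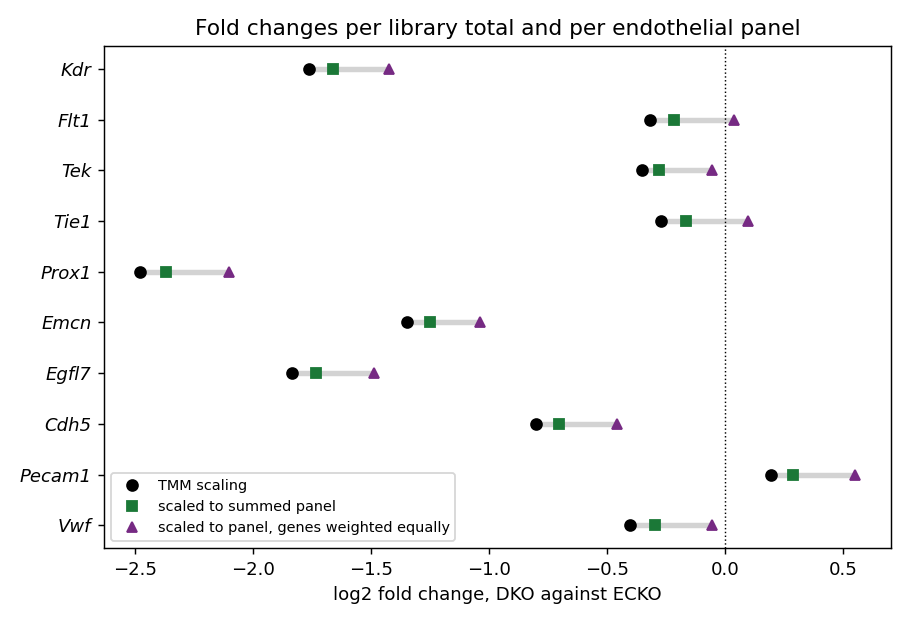
Log2 fold changes of the 10 genes in DKO against ECKO with TMM scaling, with the summed endothelial panel as the scale and with the panel genes weighted equally. Kdr moves between -1.76 and -1.42 and Prox1 between -2.48 and -2.10, while Flt1 moves between -0.32 and 0.04.

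The panel genes themselves did not move as 1 block. Against ECKO, 13 of the 20 testable ones were lower in DKO and 7 higher, with a median of -0.32, and 0 passed the adjusted threshold in edgeR or in DESeq2. At an unadjusted p under 0.05 in edgeR, 6 were lower and 1 higher, beside 4.76% of all genes lower and 381 of the 6296 higher. Clec14a, an endothelial C-type lectin, had a log2 fold change of -1.96 ± 0.48 (adjusted p = 0.0502), and its level was 10.7 CPM in DKO and 39.6 CPM in ECKO. Sox7 (-1.02) and Tal1 (-1.01), endothelial transcription factors, came next. Against CTRL the panel's median was -0.07, with Clec14a at -1.56 and Ecscr, an endothelial surface protein, at 1.13, while Sox7 had 39.8 CPM in DKO and 77.0 CPM in CTRL. The panel's median lay between that of the 10 genes and that of all genes in both comparisons.

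**Figure D4:**
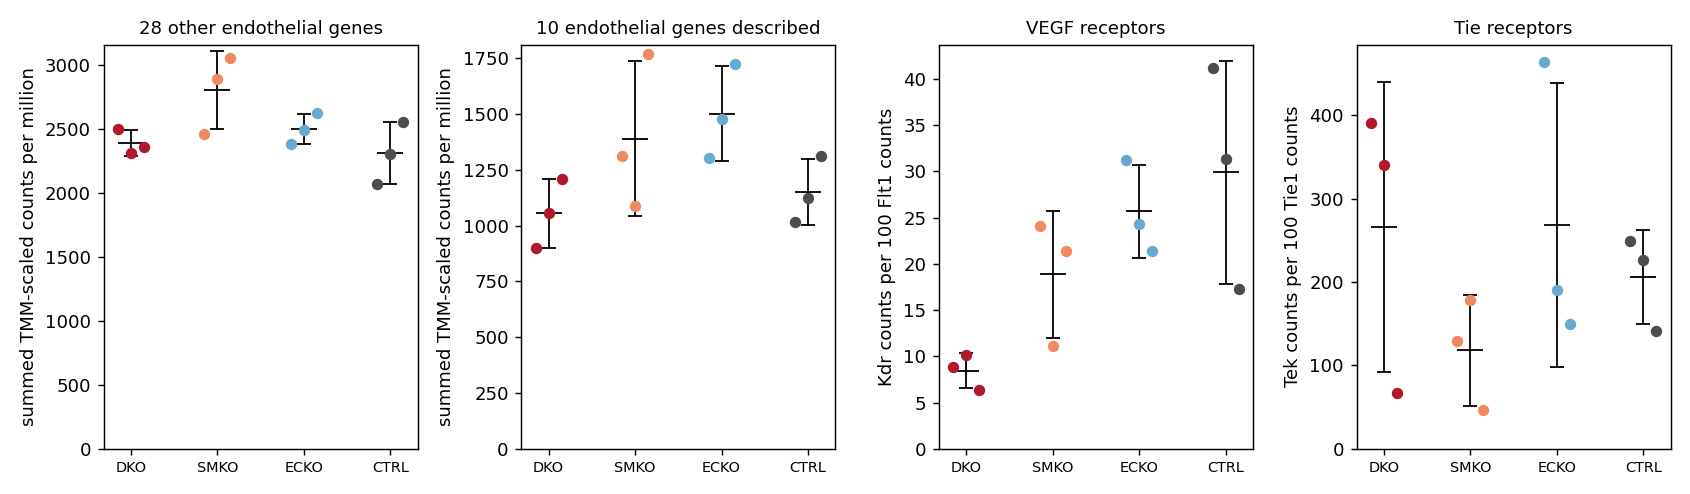
Left to right: summed CPM of 28 other endothelial genes, summed CPM of the 10 genes described, Kdr counts per 100 Flt1 counts and Tek counts per 100 Tie1 counts, with 1 point per library, the mean as a bar and the SD as whiskers, for DKO, SMKO, ECKO and CTRL. The panel sums of DKO (2390 ± 101 CPM) and CTRL (2311 ± 241 CPM) overlap, the DKO libraries are lowest for Kdr per Flt1, and all groups overlap for Tek per Tie1.

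Neither single deletion gave a call among the 10 genes in edgeR, nor in any of the 6296 genes tested (0% called), and DESeq2 also called 0 of the 10. In ECKO against CTRL, 9 of the 10 were higher and Cdh5 lower (50.2% of all genes were lower), and Vwf (log2 fold change 0.96, 95% interval 0.04 to 1.89) and Flt1 (0.55) had an unadjusted p under 0.05, both higher, beside 2.14% of all genes. Vwf had 112, 120 and 148 CPM in ECKO libraries, against 73.7, 66.0 and 44.7 CPM in CTRL libraries. Emcn, Vwf and Tek did not overlap between ECKO and CTRL, all 3 higher in ECKO, beside 5.65% of all genes. In SMKO against CTRL, 5 were higher and 5 lower (49.3% of all genes were lower), and Tie1 (0.84, 95% interval 0.02 to 1.66) and Pecam1 (0.68, 0.11 to 1.24) had an unadjusted p under 0.05, both higher, beside 2.62% of all genes, while none of the 10 was free of overlap (10.5% of all genes were). In SMKO against ECKO, 8 were lower (50.4% of all genes were), Tek alone had an unadjusted p under 0.05 (-0.65, beside 1.79% of all genes), and Kdr and Tek did not overlap, both lower in SMKO, beside 5.13% of all genes.

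Against CTRL, Kdr thus had fitted log2 fold changes of -1.49 in DKO, -0.28 in SMKO and 0.28 in ECKO, and Prox1 had -2.13 in DKO, -0.31 in SMKO and 0.35 in ECKO. The interaction term, DKO less ECKO less SMKO plus CTRL, tests whether the double deletion departs from the sum of the single ones. It was negative for all 10 genes and for 48.2% of all genes, with 0 past the adjusted threshold in edgeR or DESeq2, beside 0.0318% of all genes. Its value was -2.17 ± 0.72 for Prox1 (unadjusted p = 0.00490, adjusted 0.630), -1.96 ± 0.72 for Egfl7, -1.48 ± 0.55 for Kdr and -1.34 ± 0.47 for Emcn, the 4 genes with an unadjusted p under 0.05 (3.24% of all genes, negative). Kdr and Prox1 passed the filter through groups other than DKO, so these counts are a description only. Without SMKO replicate 2 the term passed for Egfl7 (-2.44, adjusted p = 0.00180) and Emcn (-1.73, adjusted p = 0.0237). Both had their lowest SMKO level in that library, so leaving it out was bound to make the term more negative. The test across all 4 groups called 0 of the 10 in edgeR or DESeq2, beside 0.302% of all genes, with Prox1 (adjusted p = 0.104) and Kdr (0.144) nearest and 5 of the 10 at an unadjusted p under 0.05, beside 8.97% of all genes.

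The other VEGF ligands and receptors were thinly counted, and 0 of the 7 testable ones passed in edgeR or DESeq2, against ECKO or against CTRL. At an unadjusted p under 0.05 in edgeR there were 2 lower and 1 higher against ECKO, and 2 lower against CTRL. Beside these stood 4.76% of all genes lower and 381 of the 6296 higher against ECKO, and 5.15% lower against CTRL. Flt4 (VEGFR3), the receptor for VEGF-C, had 36.8 CPM in DKO, 77.9 CPM in ECKO and 54.8 CPM in CTRL, a log2 fold change of -1.11 ± 0.33 against ECKO (adjusted p = 0.132) and of -0.53 against CTRL. Vegfa, the ligand of Kdr and Flt1, had 58.3 CPM in DKO, 135 CPM in ECKO and 133 CPM in CTRL (log2 fold changes -1.22 and -1.11). Vegfc, the ligand of Flt4, had 52.7 CPM in DKO, 31.3 CPM in ECKO and 41.6 CPM in CTRL (0.79 and 0.47). In all, 5 of the 7 were lower and 2 higher against ECKO, and 3 lower and 4 higher against CTRL. Of 11 genes known to respond to VEGF, 6 could be tested and 0 passed in edgeR. Nr4a1, an immediate early gene of a nuclear receptor, was at -0.60 against ECKO and -1.40 against CTRL (adjusted p = 0.0667, and 0.0401 in DESeq2). It was the only gene of the 6 with an unadjusted p under 0.05, against CTRL, beside 5.15% of all genes lower. Both single deletions also had lower fitted levels of Nr4a1 than CTRL (-1.39 in SMKO and -0.80 in ECKO), and DKO was at -0.01 against SMKO. Rcan1 and Adamts1 were at 0.37 and 0.49 against ECKO. The tip cell gene Esm1 had 0 counts in every library. On the Tie side only Ptprb (VE-PTP), the phosphatase of Tie2, and Foxo1, its target transcription factor, could be tested, at 0.50 and -0.38 against ECKO. Angpt1, Angpt2 and Angpt4 fell short of the filter.

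Of the lymphatic vessel markers, Reln had 0 counts in every library, and Lyve1, Ccl21a and Mmrn1 had 43, 8 and 8 counts over all 12, while Itga9 had 745 and Pdpn 157. Of the 5 testable markers, 1 was higher and 4 lower in DKO against ECKO, and 3 were higher and 2 lower against CTRL, with a median log2 fold change of -0.14 and 0.03. The integrin subunit Itga9 was at -0.14 against ECKO and 0.03 against CTRL, the membrane glycoprotein Pdpn at 0.34 and 0.11, and the co-receptor Nrp2 at -0.10 and 0.23. Flt4 and Foxc2, a transcription factor of lymphatic and cardiac valves, were the testable ones with the smallest p: Foxc2 had 33.4 CPM in DKO, 72.1 CPM in ECKO and 92.6 CPM in CTRL, with log2 fold changes of -1.01 and -1.48 (adjusted p = 0.328 and 0.0727). Of 13 testable endothelial transcription factors, 10 were lower in DKO against ECKO and 12 against CTRL, and 0 passed in edgeR or DESeq2. Sox17, the gene of this list that fell short of the filter, went the other way. It had 7, 32 and 7 counts in DKO libraries, against 2, 1 and 2 in ECKO libraries and 3, 1 and 1 in CTRL libraries. In SMKO libraries Sox17 had 0, 14 and 0 counts. Gata2 had a log2 fold change of -1.29 ± 0.33 against ECKO (adjusted p = 0.0683), and Nr2f2 (COUP-TFII), the venous identity factor, -1.43 against ECKO and -1.45 against CTRL. Ets1 was at -1.23 against CTRL. At an unadjusted p under 0.05 in edgeR, 7 were lower against ECKO and 5 against CTRL, beside 4.76% and 5.15% of all genes. The list's median was -0.71 against ECKO and -0.48 against CTRL.

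A gene of valve endothelium was called in the other direction. Wnt9b, a Wnt ligand of valve endothelium in mice, was 302 CPM in DKO, 122 CPM in ECKO and 84.7 CPM in CTRL, and it rose by 1.25 ± 0.26 on the log2 scale against ECKO (adjusted p = 0.0334) and by 1.82 ± 0.27 against CTRL (adjusted p = 0.000658). Against CTRL this call held in each of the 12 fits that left out 1 library, and against ECKO in 6 of them. Wnt9b was also higher in SMKO (211 CPM) than in CTRL, without overlap, by 1.29 ± 0.29 (adjusted p = 0.248 in edgeR). The DKO and SMKO libraries overlapped, with a log2 fold change of 0.53 ± 0.27. Wnt9b was 1 of 7 testable genes of that list, the other 6 did not pass, and the list's median was 0.16 against ECKO and 0.18 against CTRL. Hapln1, a link protein of valve matrix, was at -1.13 against CTRL and Cgnl1, a junction protein, at -0.94 against ECKO.

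Of the markers of myocardial capillaries, Gpihbp1 and Car4 had 0 counts in every library, while Cd36 and Cd300lg were counted. Cd36, a fatty acid transporter also made by macrophages and platelets, fell by 1.99 on the log2 scale against ECKO (adjusted p = 0.0404) and by 2.29 against CTRL (adjusted p = 0.00991), with 10.9 CPM in DKO, 51.3 CPM in ECKO and 62.7 CPM in CTRL. These calls of Cd36 held in 5 and 9 of the 12 fits that left out 1 library. Cd300lg, a capillary surface protein, had 0, 4 and 4 counts in DKO libraries, against 11, 35 and 41 counts in ECKO libraries and 28, 2 and 12 counts in CTRL libraries. The whole list of 8 summed to 485 to 628 CPM in DKO libraries, 634 to 869 CPM in ECKO libraries and 581 to 633 CPM in CTRL libraries. Aqp1, a water channel and the other testable gene of the list, averaged 511 CPM in DKO, 638 CPM in ECKO and 495 CPM in CTRL, most of each sum. Its groups overlapped, and its log2 fold change was -0.33 ± 0.26 against ECKO (adjusted p = 0.712) and 0.03 ± 0.26 against CTRL (adjusted p = 0.989). Cd36 and Cd300lg were thus lower in DKO than in ECKO libraries along with Kdr, while Aqp1 overlapped, and the part of capillaries in the Kdr result was not tested.

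Of the markers of non-endothelial cells, the summed level of the melanocyte list was separate between DKO and ECKO libraries, and the other lists overlapped. The 6 melanocyte markers summed to 382 to 919 CPM in DKO libraries and 61.3 to 100.3 CPM in ECKO libraries. Dct, a melanin enzyme, was higher in DKO than in ECKO by 2.57 on the log2 scale (adjusted p = 0.0404 in edgeR). Of the 5 testable melanocyte markers, 4 had an unadjusted p under 0.05, all higher, beside 381 of the 6296 genes tested. The call of Dct held in 5 of the 12 fits that left out 1 library. Against the CTRL range of 201.1 to 673 CPM the DKO libraries overlapped. For Dct, ECKO was the low group, at -2.47 against CTRL, while DKO was at 0.10 against CTRL and SMKO at 3.01 against ECKO. The 5 erythroid markers summed to 99.0 to 429 CPM in DKO libraries and 40.9 to 5513 CPM in ECKO libraries. Macrophage markers ran from 844 to 2157 CPM in DKO libraries and 814 to 1564 CPM in ECKO libraries, and platelet markers, of interest for Pecam1 and Vwf, from 50.8 to 187 CPM in DKO libraries and 56.2 to 104 CPM in ECKO libraries. Cardiomyocyte markers ran from 61.4 to 78.5 CPM in DKO libraries and 10.2 to 702 CPM in ECKO libraries. The 8 valve interstitial markers summed to 31740 to 46351 CPM in DKO libraries and 27056 to 35282 CPM in ECKO libraries, and 6 of the 8 had a higher fitted level in DKO, with a median log2 fold change of 0.49. Among them Postn, a matrix protein, was at 0.96 (adjusted p = 0.347) and the collagen chain gene Col1a1 at 0.91 (adjusted p = 0.375), each higher in every DKO than in any ECKO library. The growth factor receptor gene Pdgfra was at -1.77 against ECKO (adjusted p = 0.0953) and -1.71 against CTRL (adjusted p = 0.119), below every ECKO and CTRL library in DKO, and DESeq2 called both (adjusted p = 0.0148 and 0.0178). The part of these cells in the values of the 10 genes was not tested.

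The share of mitochondrially encoded transcripts ran from 10.5% to 28.5% over the libraries. It was 20.7%, 10.5% and 21.0% in DKO libraries, which had 13.9, 19.8 and 12.5 CPM of Kdr, and 15.1%, 24.1% and 28.5% in SMKO libraries, which had 46.0, 21.0 and 41.1 CPM. It was 20.9%, 13.96% and 12.9% in ECKO libraries, which had 51.1, 53.5 and 61.5 CPM of Kdr, and 10.5%, 11.2% and 26.7% in CTRL libraries, which had 40.5, 55.3 and 37.2 CPM. Within DKO, ECKO and CTRL, but not within SMKO, the library with the highest share had the lowest level of Kdr, and the part of this share in the Kdr result was not tested. With library depth as a covariate the log2 fold change of Kdr against ECKO was -1.72 and that of Prox1 -2.40, and neither passed the adjusted threshold.

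The genes most like Kdr over the 12 libraries were Lsamp, Clec14a and Nr2f2, with root mean square differences in centred log2 CPM of 0.226, 0.305 and 0.307, where the median over 6285 protein-coding genes was 0.855. Lsamp, a neural adhesion molecule, had 16.6 ± 7.26 CPM in DKO, 40.6 ± 17.5 in SMKO, 61.3 ± 4.85 in ECKO and 45.2 ± 7.06 in CTRL. Those most like Prox1 were Slc38a4, an amino acid transporter, at 0.399, Fmo1, a flavin monooxygenase, at 0.449 and Ogn, a small matrix proteoglycan, at 0.492, where the median was 1.09. Ogn averaged 44.1 ± 6.45 CPM in DKO, 130.2 ± 79.4 in SMKO, 159 ± 25.5 in ECKO and 125 ± 14.3 in CTRL.

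In the authors' deposited table of comparisons, the signed fold of DKO against ECKO was -3.32 for Kdr, -5.95 for Prox1, -3.50 for Egfl7 and -2.50 for Emcn. The authors' deposited table gave Egfl7 a p-value of 6.75e-06, where edgeR's unadjusted p was 0.00399. In the authors' deposited table, Flt1 (-1.25), Tek (-1.23), Tie1 (-1.20), Vwf (-1.30) and Pecam1 (1.12) had folds nearer to 1 in size for the same comparison.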

How the data were processed

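The authors deposited 1 table with whole-number counts per gene for each of the 12 libraries, per the file headers, and these counts entered every test. The table also holds TPM computed by the authors, used here for levels between genes, and the authors' fold changes and p-values for DKO against the other groups, with no test named. Amplified cDNA was prepared with a tagmentation kit that does not keep strand and read as paired ends, per the labels' protocols. Per the submitters' processing notes the mapping build was GRCm39, and which aligner, counter and annotation served is not given in the sources used here.

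Genes were kept by filterByExpr (10 counts or more after scaling for depth, in 3 or more libraries): 6296 of the 16588 genes with counts, holding 93.1% of counts. edgeR 4.0.16 (R 4.3.3) fitted all 12 libraries in 1 quasi-likelihood model with TMM factors, a robust fit and group as the only term, with Benjamini-Hochberg adjustment over all genes tested and a threshold of 0.05. DESeq2 1.42.0, limma 3.58.1 with voom, other scalings and filters, a replicate block, a depth covariate and leaving out each library were alternatives. On simulated DKO against ECKO counts over 6252 genes, edgeR recovered 88.0% of genes changed by 2 on the log2 scale and 18.6% of those changed by 1. The simulation gave every gene and library the same spread, and the 10 genes and the panel were not scored. These shares are therefore not the power for the 10 genes, some of which had few counts or varied more. The common biological coefficient of variation was 0.246.

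All 10 genes are described. From the other lists, genes past the threshold are named, otherwise the 3 with the smallest p in a comparison, in part; for a gene past the threshold, the 3 protein-coding genes most like it. The genes and lists were chosen with earlier results of these data known. Replicate libraries differed by more than counting noise in every pair (chi-square per degree of freedom 2.05 to 12.0). No animal is tied to a library, so p-values measure the spread between these libraries, which may be technical in part. Samples were grouped by the genotype label. Promoter windows come from RefSeq (GRCm38.p6), and gene overlaps from an annotation of that older build.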

Additional observations from a re-analysis of the deposited data

How the results depend on the processing

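Against ECKO, where 2 of the 10 genes were called, the count was 1 with limma-voom (Emcn), 4 with no filter on low counts, 0 with a depth covariate, 1 with the summed panel as scale and 1 with the equally weighted panel, the last chosen after seeing the data. DESeq2 also called 2, but these were Egfl7 and Emcn, since it gave Kdr and Prox1 no adjusted p. Leaving out each library in turn gave 0 to 4, with 0 without CTRL replicate 1, ECKO replicate 2, ECKO replicate 3, DKO replicate 1 or DKO replicate 2 and 4 without SMKO replicate 2. The call of Kdr held in 11 of 22 alternatives and that of Prox1 in 14 of 21, and the signs of Kdr, Prox1, Emcn and Egfl7 against ECKO were the same in every alternative that gave a value. Against CTRL, where 0 were called, the count was 2 with no filter, 1 with the 2 groups alone and 0 to 3 leaving out each library. Against SMKO it was 1 with no filter and 0 to 2 leaving out each library, for the interaction 1 and 0 to 2, and for the test over the 4 groups 3 and 0 to 4. ECKO against CTRL, SMKO against CTRL and SMKO against ECKO called 0 in every alternative. Over all genes tested, 36 were called against ECKO (61.1% of them higher), 95 with limma-voom, 173 with no filter, 172 with the 2 groups alone, 10 with a depth covariate, 72 with the equally weighted panel and 0 to 151 leaving out each library. With the summed panel 87.2% of the calls against ECKO were higher, and with the equally weighted one 93.1%. Both panel scales shift the log2 fold changes of all genes upward, as their medians above show, which moves calls to the higher side. The cause of the other changes was not tested.

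The labels do not say whether the replicate numbers pair the libraries, and the main fit left them out. Deviations of same-numbered libraries correlated between -0.136 and 0.165 (mean 0.0546), over 0.1 in 5 of 18 pairs. Those of different-numbered libraries correlated between -0.190 and 0.147 (mean -0.0256), over 0.1 in 3 of 36 pairs. Some shared structure by replicate number is thus possible. With the replicate block the count was 3 against ECKO, 2 against CTRL (Prox1 and Egfl7) and 1 for the test over the 4 groups. Depth limits Kdr and Prox1 most, with 16 and 9 counts over the DKO libraries.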
